A study of Mus musculus with 2 samples.

Results

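Histone genes were followed in CD8 single-positive thymocytes, as the rows of the authors' deposited table of changed probe sets whose gene symbol starts with Hist1, Hist2, Hist3, Hist4, H2af or H1f. The rule found 55 of the 1003 listed probe sets, under 35 gene symbols. Both probe sets of Hist1h4m held identical values in both arrays and were counted once, which left 54 signals. No listed symbol starts with Hist3 or H1f. A probe set is a group of probes on the array that is summarised to 1 value. The authors listed a probe set for a difference of at least 2-fold between the arrays, so that the size of each difference chose the members, and these differences are given as a description without a test.

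Histones are the proteins that package DNA. A nucleosome holds the core histones H2A, H2B, H3 and H4, and the linker histone H1 binds the DNA between nucleosomes. Replication-dependent histone genes lie in clusters, are transcribed in S phase when new DNA has to be packaged, and give messenger RNA that ends in a stem-loop in place of a poly(A) tail. Variant genes such as those of H2A.Z and H2A.X lie outside the clusters and are not confined to S phase. In the thymus most cell division takes place among immature cells, before the mature single-positive stage.

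RNA was measured on 2 arrays, 1 for CIITAtgpIV-/- and 1 for B6 wild-type CD8 single-positive thymocytes, from mice of B6 background aged 8 weeks. Each array received RNA pooled from 2 to 4 thymuses of 1 genotype, after magnetic selection of CD8 single-positive cells and removal of ribosomal RNA. The labels give the mutant genotype by its name alone, without the promoter or cell type that drives a transgene, and say that animals were told apart by flow cytometry. CIITA is known as the activator of MHC class II transcription. A single array a group gives no replicate check, so precision is limited by array number and no p-value is given.

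Values are log2 signals, on which a difference of 1 is 2-fold, and every difference is CIITAtgpIV-/- minus B6 wild-type. The median signal over 35556 probe sets was 5.30 in CIITAtgpIV-/- and 5.20 in wild type. Ciita and the CD8 lineage genes Cd8a and Cd8b1 are not among the named probe sets, so neither label was checked through them. H2-Aa, a class II gene that CIITA activates, had 12.01 in CIITAtgpIV-/- and 9.19 in wild type. As a yardstick in place of replicate error, the robust standard deviation of the difference over the 28560 probe sets in the listed range of identifiers was 0.25. That value mixes measurement error with differences between pools and between genotypes.

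All 54 histone signals were at least 2-fold lower in CIITAtgpIV-/-, where the choice of members fixed the size of at least 2-fold but not the direction. Over the 28560 probe sets, 2.54% were at least 2-fold lower and 0.977% at least 2-fold higher. The median difference of the histone signals was -1.87, against 0.03 over those 28560 probe sets. The first median was bounded by the 2-fold that listing required, so nothing is read from the gap between the 2 medians. At 4-fold or more 22 of the 54 signals were lower (0.781% of all probe sets), and at 8-fold or more 5 (0.284% of all). Since every member had passed 2-fold by choice, nothing is read from these shares; of all 724 probe sets at least 2-fold lower, 223 were lower by 4-fold and 81 by 8-fold. Signals lay between 3.31 and 10.78 in CIITAtgpIV-/- and between 5.24 and 12.91 in wild type. Of the 54, 53 passed an expression floor of 5.42, set at the middle of all probe sets when each is taken at its higher value. In these pooled cells, fewer cells that make a histone transcript and less of it per cell cannot be told apart.

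**Figure D1:**
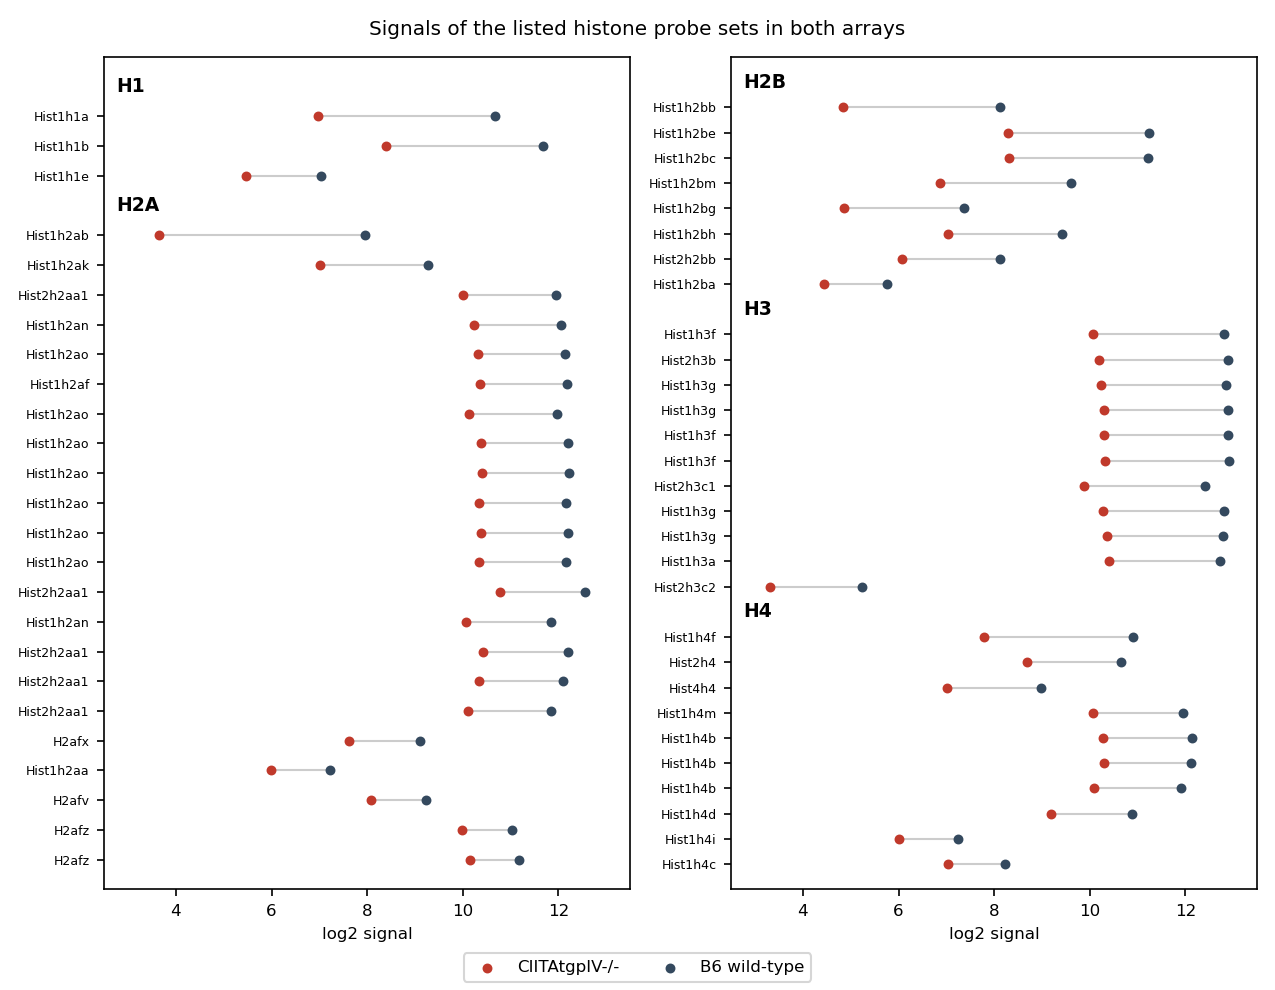
Log2 signal (horizontal axis) of each of the 54 histone signals in CIITAtgpIV-/- (red) and B6 wild-type (dark blue) thymocytes, grouped by histone type and ordered by difference, with 1 array a group and no error bars. Every red point lies left of its dark blue point, with differences from -1.01 for the closest pair (H2afz) to -4.30 for the widest (Hist1h2ab).

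Linker histone genes had 3 listed members, and the differences of 2 of them were among the 5 histone differences past 8-fold (0.284% of all probe sets were). Hist1h1a (H1f1 in RefSeq), a linker histone, had a signal of 6.98 in CIITAtgpIV-/- and 10.67 in wild type and was 12.9-fold lower. Hist1h1b (H1f5), another linker histone, had 8.40 in CIITAtgpIV-/- and 11.68 in wild type, 9.74-fold lower. Hist1h1e (H1f4) differed less, with 5.47 in CIITAtgpIV-/- and 7.03 in wild type, a difference of -1.56. Its 45 probes span 23675610 to 23714427 in the authors' table, a far wider stretch than for Hist1h1a and Hist1h1b. The signal may therefore not be that of Hist1h1e alone. All 3 linker histone differences lay further apart than the yardstick of 0.25. That yardstick is for a single difference, and the gap between 2 differences spreads more. The gap between Hist1h1a (-3.69) and Hist1h1b (-3.28) is therefore not read as a difference between genes. For Hist1h1a and Hist1h1b, not 1 of the 500 probe sets outside the members and closest in mean signal was as low, while 3.6% were for Hist1h1e.

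H2A was the type with the most listed probe sets, 22 signals under 10 symbols, of which 17 signals were replication-dependent. Of those 17, 15 formed a narrow group. Their signals were 10.00 to 10.78 in CIITAtgpIV-/- and 11.85 to 12.56 in wild type, and their differences ran from -1.96 to -1.73. The brightest was a Hist2h2aa1 probe set, with 10.78 in CIITAtgpIV-/- and 12.56 in wild type. The group consists of Hist1h2af, Hist1h2an, Hist1h2ao and Hist2h2aa1, genes of nearly the same coding sequence, and it is uncertain which of them gave each signal.

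The other 2 replication-dependent H2A genes stood apart from that group. Hist1h2ab (H2ac4) had the widest difference of all members, with 3.65 in CIITAtgpIV-/- and 7.95 in wild type, 19.8-fold lower over 11 probes. Its CIITAtgpIV-/- signal lay below the floor, where this kind of value understates a fold. Hist1h2ak (H2ac15) had 7.01 in CIITAtgpIV-/- and 9.27 in wild type, a difference of -2.26. The authors' table places Hist1h2ab on chromosome 13 (23842957 to 23843462), in coordinates whose genome build is not given in the sources used here.

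H2B genes were listed under 8 symbols that the rule takes in, each with 1 probe set and its own pair of values. Further H2B probe sets are listed under a clone name and are given below. Of the 8 symbols, the 7 replication-dependent ones had signals of 4.84 to 8.32 in CIITAtgpIV-/- and 7.36 to 11.25 in wild type. All 7 were at least 4-fold lower (0.781% of all probe sets were), with a median difference of -2.75. Listing had already required 2-fold, and of all 724 probe sets at least 2-fold lower, 223 were lower by 4-fold. Hist1h2bb (H2bc3) was the lowest, with 4.84 in CIITAtgpIV-/- and 8.12 in wild type, 9.75-fold lower. The brightest of the 7, Hist1h2be (H2bc6), had 8.29 in CIITAtgpIV-/- and 11.25 in wild type, 7.77-fold lower. Hist1h2bc (H2bc4) followed closely with 8.32 in CIITAtgpIV-/- and 11.23 in wild type. The authors' table places the Hist1h2be probe set at 21845983 on chromosome 13, beside Hist1h2ak at 21845264. In RefSeq order H2bc6 follows H4c4, whose probe set lies at 23673468. The Hist1h2bc probe set is placed before that of H4c4, while RefSeq has H2bc4 after H4c4. It is thus uncertain which H2B genes gave these signals. The smallest difference was that of Hist2h2bb (H2bc18), -2.03, with 6.08 in CIITAtgpIV-/- and 8.11 in wild type. Hist1h2bm (H2bc14), with 8 probes, lay between them at -2.75.

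H3 signals, like those of the narrow H2A group, lay close together. Of the 11 signals, 10 lay between 9.88 and 10.40 in CIITAtgpIV-/- and between 12.42 and 12.91 in wild type, on a scale whose top was 13.48 in CIITAtgpIV-/- and 13.46 in wild type. Their differences ran from -2.73 to -2.33, and all 10 were at least 4-fold lower (0.781% of all probe sets were). Listing had already required 2-fold of each. One Hist1h3f (H3c7) probe set had 10.32 in CIITAtgpIV-/- and 12.91 in wild type, 5.99-fold lower. Another Hist1h3f probe set had the widest H3 difference, with 10.07 in CIITAtgpIV-/- and 12.81 in wild type. Hist2h3c2 (H3c15) was dim in both arrays, with 3.31 in CIITAtgpIV-/- and 5.24 in wild type over 13 probes, and is the 1 signal under the floor. The other H3 members are Hist1h3a, Hist1h3g, Hist2h3b and Hist2h3c1, and H3 gene copies are near-identical as well.

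H4 genes gave 10 signals under 8 symbols, with differences from -3.11 to -1.20. The 4 signals of Hist1h4b and Hist1h4m lay between 10.06 and 10.29 in CIITAtgpIV-/- and between 11.91 and 12.13 in wild type, with differences from -1.88 to -1.82. The brightest of them, a Hist1h4b (H4c2) probe set, had 10.27 in CIITAtgpIV-/- and 12.13 in wild type. Hist1h4f (H4c6) was 8.66-fold lower, with 7.79 in CIITAtgpIV-/- and 10.90 in wild type, over 8 probes. Hist1h4c (H4c3), also measured by 8 probes, had 7.03 in CIITAtgpIV-/- and 8.23 in wild type, a difference of -1.20. The differences of these 2 genes lay further apart than the yardstick. Hist1h4i (H4c9) differed by -1.24, Hist1h4d (H4c4) by -1.69, Hist4h4 by -1.96 and Hist2h4 by -1.98. Hist4h4 lies on chromosome 6 and Hist2h4 on chromosome 3, outside the chromosome 13 clusters.

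No listed variant signal was 4-fold lower (0.781% of all probe sets were), and both H2afz probe sets lay next to the 2-fold threshold. RefSeq holds 14 genes with an H2af or H1f name, current or older. Of these, 3 were matched to listed symbols (H2afz, H2afv and H2afx), and the differences of the other 11 are not known here. H2afz encodes H2A.Z, which replaces H2A in nucleosomes at promoters, and its 2 probe sets had 9.99 and 10.16 in CIITAtgpIV-/-, against 11.02 and 11.17 in wild type. Their differences, -1.04 and -1.01, lie just inside the threshold, and the nearest value just outside it among all 28560 probe sets was -0.9996, from an unnamed probe set. Quantile normalization put both H2afz probe sets outside it, at -0.98 and -0.93, and loess put the second at -0.99. H2afv (H2az2), which encodes a second H2A.Z, had 8.09 in CIITAtgpIV-/- and 9.24 in wild type, 2.23-fold lower. H2afx encodes H2A.X, which is phosphorylated at DNA breaks, and had 7.61 in CIITAtgpIV-/- and 9.11 in wild type, 2.83-fold lower.

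A further 2 listed genes encode histones known from the testis. Hist1h2aa had 5.98 in CIITAtgpIV-/- and 7.22 in wild type, and Hist1h2ba had 4.44 in CIITAtgpIV-/- and 5.75 in wild type. The CIITAtgpIV-/- signal of Hist1h2ba lay below the floor of 5.42. For Hist1h2aa, 5.6% of the 500 probe sets closest in mean signal were as low. Over the 6 variant signals the median difference was -1.20, with a range from -1.50 to -1.01. Over the 48 replication-dependent signals it was -1.96, with a range from -4.30 to -1.20. Both ranges are bounded at the 2-fold threshold by the choice of members, and no test between the classes was possible with 1 array a group. The medians cover listed genes alone and are not read as a contrast between the classes.

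**Figure D2:**
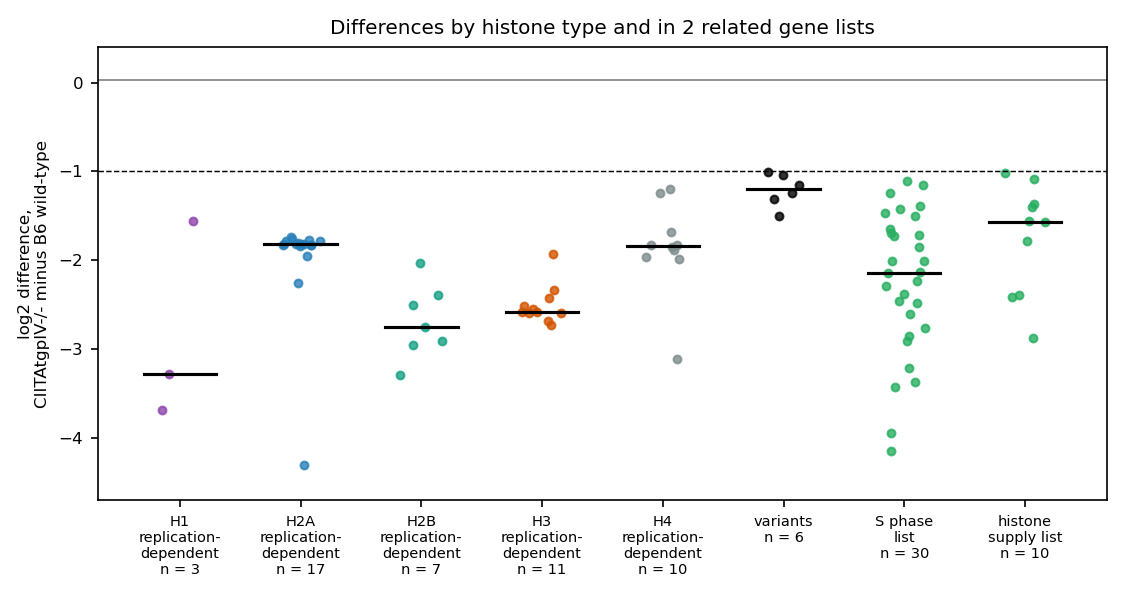
Log2 difference (CIITAtgpIV-/- minus B6 wild-type) of each signal by histone type, for the variants and for the listed members of 2 related gene lists. Black bars are medians, the dashed line marks 2-fold and the grey line the median over 28560 probe sets (0.03). The medians of the replication-dependent types lie between -3.28 (H1) and -1.82 (H2A), and that of the variants at -1.20.

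Genes of S phase were listed in large number and were lower as well. Of 35 genes for S phase entry and DNA synthesis, 30 were listed, all 30 lower. Over the 28560 probe sets, 2.54% were at least 2-fold lower. The median difference of the 30 was -2.14, with a range from -4.15 to -1.11, both bounded by the 2-fold that listing required. The list was drawn up with earlier results of these data known. Ccna2, the cyclin of S phase and G2, had 5.58 in CIITAtgpIV-/- and 9.73 in wild type. Cdc6, which loads the replicative helicase, had 5.81 in CIITAtgpIV-/- and 9.18 in wild type. Ccne2, a cyclin that drives entry into S phase, had 3.92 in CIITAtgpIV-/- and 7.13 in wild type. Pcna, the sliding clamp of DNA polymerases, differed least of the 30, with 10.17 in CIITAtgpIV-/- and 11.27 in wild type. The median of the S phase genes lies between those of the replication-dependent H2A and H3 signals.

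Genes that serve histone supply were listed less completely. Of 39 genes for histone gene transcription, histone mRNA processing and histone chaperones, 10 were listed, all 10 lower. The share at least 2-fold lower over the 28560 probe sets was 2.54%. The median difference of the 10 was -1.57, bounded by listing at 2-fold in the same way. This list, too, was drawn up with earlier results of these data known. Slbp, which binds the stem-loop of histone mRNA, had 8.71 in CIITAtgpIV-/- and 10.29 in wild type, 2.98-fold lower. Asf1b, a chaperone that hands H3 and H4 to assembly factors, had 7.74 in CIITAtgpIV-/- and 10.15 in wild type, 5.33-fold lower. Chaf1a and Chaf1b, subunits of the assembly factor CAF-1, differed by -1.78 and -1.09. Nasp, an H1 and H3 chaperone, differed by -1.36, and Hat1, which acetylates new H4, by -1.02.

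Several listed genes of that list serve variant histones. Cenpa, the H3 variant of the centromere, which the symbol rule does not take in, had 7.36 in CIITAtgpIV-/- and 8.93 in wild type, 2.95-fold lower. Oip5, which helps to bring Cenpa to centromeres, differed by -2.39. Anp32e, which removes H2A.Z from nucleosomes, differed by -1.40. The other 29 genes, Npat and Casp8ap2 among them, are not listed, and their differences are not known here.

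Among probe sets of high signal, most of the lower ones were histone members. Of 604 probe sets in the listed range with a mean signal of at least 11, 29 were at least 2-fold lower, a share of 4.8%. Of these 29, 27 were histone members, 1 was Vim, an intermediate filament gene, at -1.17, and 1 carried no gene symbol, at -1.13. For these 27 members, 0 of the 500 probe sets outside the members and closest in mean signal were as low. That 0 largely restates the count above, since the other members were left out and members were chosen for 2-fold. Over all 55 probe sets, 36 had no neighbour outside the members as low, and the highest share was 5.8%, for Hist1h4i. With the other members kept among the neighbours, 6 of the 55 had none as low, and the highest share was 6%, again for Hist1h4i. Most of these neighbours are unnamed here, and some may measure histones. These shares rank the differences by size and are no test.

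**Figure D3:**
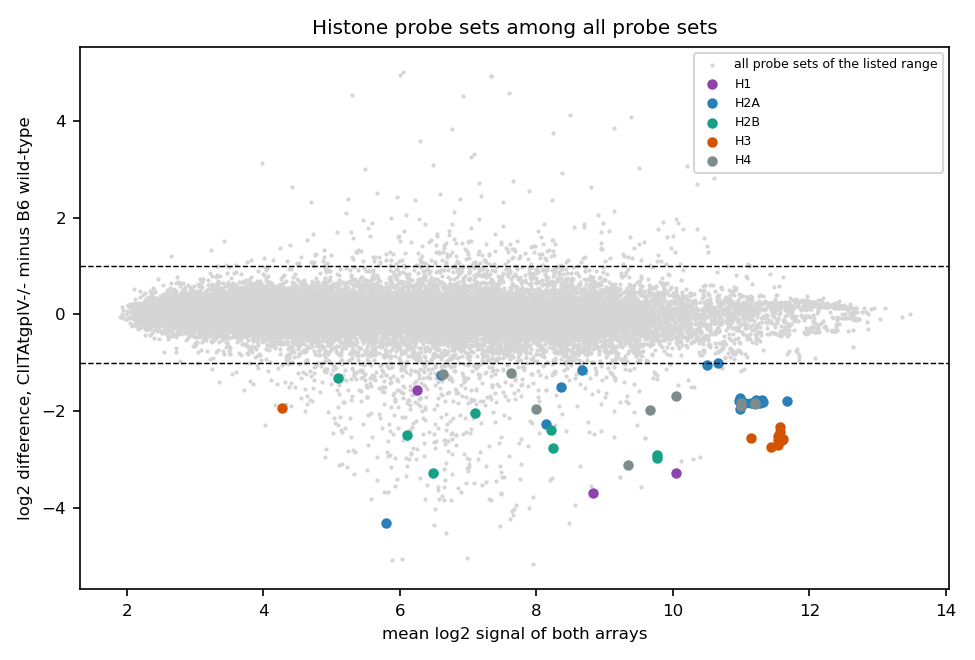
Log2 difference (vertical axis, CIITAtgpIV-/- minus B6 wild-type) against the mean log2 signal of both arrays for 28560 probe sets (grey) and the 54 histone signals (coloured by type), with dashed lines at 2-fold. At mean signals of 11 and more, 27 of the 29 probe sets past 2-fold on the lower side are histone members.

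The histone probe sets are not separate observations. Of the 55, 14 shared their difference with another to within 2e-05, in 6 sets, while 5 of these sets differed in level. Hist1h2af and 2 probe sets of Hist1h2ao shared a difference of -1.82 at levels from 10.14 to 10.36 in CIITAtgpIV-/- and from 11.97 to 12.19 in wild type. A Hist1h2an and a Hist2h2aa1 probe set shared -1.78, and 2 Hist1h3f probe sets shared -2.58. The share of probe sets with a common difference was 25.5% among histones and 10.8% among the other 948 listed ones. Counted once each, 47 different differences remained, with a median of -1.96.

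Gene symbols and positions in the authors' table also do not pair 1 to 1. Of the 35 symbols, 8 hold 28 of the 55 probe sets, and 27 hold 1 each. Hist1h2ao stands for 7 probe sets at 7 places on chromosome 13, all with differences from -1.82 to -1.81. For 3 probe sets the table gives another chromosome than RefSeq gives for the gene. A Hist1h2an probe set is placed on chromosome 3, a Hist2h2aa1 probe set on chromosome 13 and an H2afz probe set on chromosome 6. Taking symbols with 1 listed probe set alone, a choice made after seeing the data, the median difference was -2.26 over 27 signals.

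Most members lie in 2 stretches of chromosome 13 and 1 stretch of chromosome 3. In the table's coordinates, 17 probe sets lie on chromosome 13 from 21808281 to 22134818 and 22 from 23625780 to 24026720, and 10 lie on chromosome 3 from 96023839 to 96082947. The median difference was -1.83 in the first stretch of chromosome 13 and -2.40 in the second, over 16 and 22 signals. The first median rests on many Hist1h2ao signals of nearly the same difference. It also leaves out the listed probe sets there without a histone symbol, which are given below. The medians are therefore not read as a contrast between the stretches. The widest differences of H2A, H1 and H2B, those of Hist1h2ab, Hist1h1a and Hist1h2bb, all lie in the second stretch, where both testis genes lie at its end. Neighbouring probe sets differed in size there. Hist1h2ab at -4.30 lies between Hist1h2bb at -3.29 and a Hist1h3f probe set at -2.58, with a Hist1h4b probe set at -1.86 beyond it. The symbols Hist1h3f and Hist1h4b each stand for probe sets at several places. It is therefore uncertain which genes gave those signals, and no difference between neighbouring genes is read from them.

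Identifiers follow position on each strand, with 960 ordered neighbours and 0 out of order in the authors' table. In the first stretch of chromosome 13 the value table holds 21 probe sets with identifiers between the outermost members of a strand. Of these, 17 are members, 2 are other listed probe sets and 2 are unlisted, at -0.31 and 0.13. The corresponding run of the second stretch holds 39, of which 22 are members and 17 unlisted, with a median difference of -0.13 and a range from -0.85 to 0.42. The unlisted ones are unnamed here, so it is not known which of them measure histones.

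In or beside the first stretch, 6 further listed probe sets carry no histone symbol, and all were lower. Of these, 5 bear a clone name in the authors' table with an accession that RefSeq gives to H2bc23, an H2B gene. They had 8.31 to 8.92 in CIITAtgpIV-/- and 10.86 to 11.87 in wild type, with differences from -3.04 to -2.55, and 2 of the 5 had identical values. The sixth, LOC100041230, is described in the authors' table as similar to histone H4 and had 3.80 in CIITAtgpIV-/- and 6.25 in wild type.

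**Figure D4:**
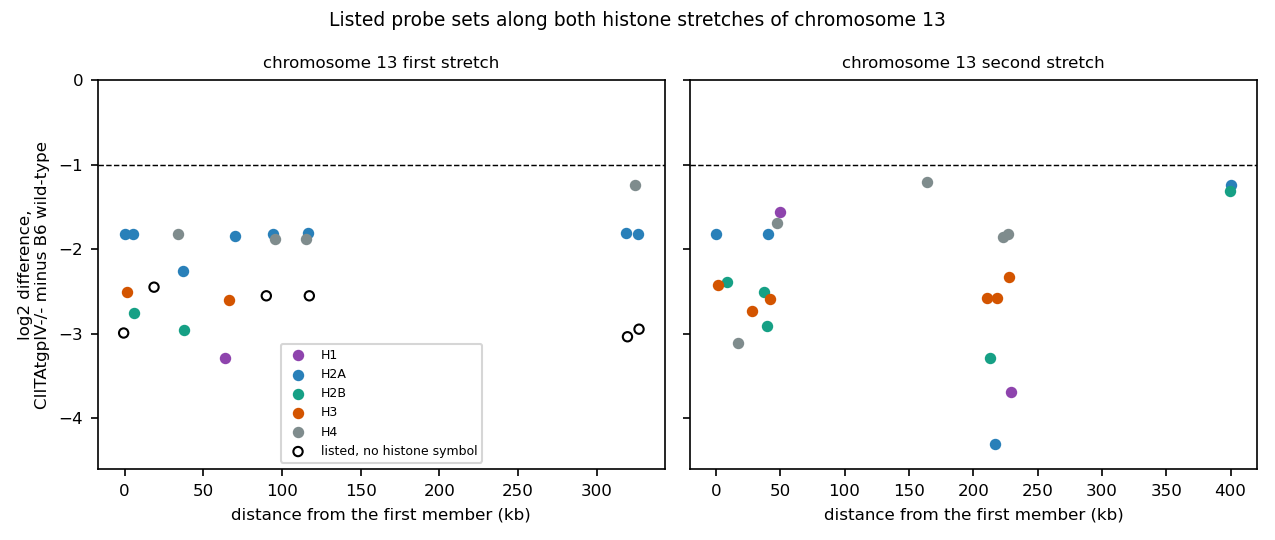
Log2 difference (CIITAtgpIV-/- minus B6 wild-type) of listed probe sets against the distance in kb from the first member, in the first (left) and second (right) histone stretch of chromosome 13. Filled points are members by histone type and open points are the 6 listed probe sets without a histone symbol. Most H2A points lie near -1.82, and Hist1h2ab lies lowest at -4.30.

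Promoters of the members are shown because the listed genes were all lower in CIITAtgpIV-/- and their promoters differ by type. Each line gives the 160 bases before the gene's start in RefSeq, build GRCm38.p6, 5′ to 3′ on the gene's strand. They are the promoters of both linker genes past 8-fold (H1f1, H1f5), of the H2A and H2B genes with the widest difference (H2ac4, H2bc3), of an H3 gene (H3c8, Hist1h3g in the authors' table), of an H4 gene (H4c4) and of the variant gene H2az1 (H2afz). Capitals mark the letters of the CCAAT box (CCAAT), the TATA box (TATAAA) and the octamer (ATTTGCAT), all searched on both strands. A mark shows matching letters at any position and not a working box.
H1f1: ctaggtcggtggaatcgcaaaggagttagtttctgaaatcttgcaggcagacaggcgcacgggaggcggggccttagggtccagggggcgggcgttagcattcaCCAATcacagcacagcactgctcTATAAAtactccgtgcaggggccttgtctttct
H1f5: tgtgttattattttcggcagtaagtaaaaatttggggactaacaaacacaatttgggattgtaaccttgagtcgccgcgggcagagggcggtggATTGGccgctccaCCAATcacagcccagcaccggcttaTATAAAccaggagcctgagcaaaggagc
H2ac4: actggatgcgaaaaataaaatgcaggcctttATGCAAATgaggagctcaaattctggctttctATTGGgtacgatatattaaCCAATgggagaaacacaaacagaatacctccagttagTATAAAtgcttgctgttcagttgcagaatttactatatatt
H2bc3: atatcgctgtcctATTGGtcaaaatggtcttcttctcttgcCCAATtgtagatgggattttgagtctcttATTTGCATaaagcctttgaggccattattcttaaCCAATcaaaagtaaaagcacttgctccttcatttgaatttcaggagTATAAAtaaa
H3c8: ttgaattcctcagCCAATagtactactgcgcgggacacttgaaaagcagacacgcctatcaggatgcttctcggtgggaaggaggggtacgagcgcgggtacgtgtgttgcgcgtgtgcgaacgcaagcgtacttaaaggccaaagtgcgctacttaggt
H4c4: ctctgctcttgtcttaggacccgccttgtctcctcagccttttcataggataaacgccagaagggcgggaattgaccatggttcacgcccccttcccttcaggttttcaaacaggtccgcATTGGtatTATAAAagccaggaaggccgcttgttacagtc
H2az1: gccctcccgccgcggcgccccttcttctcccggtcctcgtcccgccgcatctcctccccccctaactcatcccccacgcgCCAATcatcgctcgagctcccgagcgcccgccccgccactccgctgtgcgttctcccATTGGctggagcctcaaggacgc

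The H1f1 window is chr13:23763508-23763667 on the plus strand, that of H1f5 chr13:21780626-21780785 on the minus strand, and that of H2ac4 chr13:23750928-23751087 on the plus strand. Those of H2bc3, H3c8 and H4c4, all on the plus strand, are chr13:23746574-23746733, chr13:23535258-23535417 and chr13:23581408-23581567, and that of H2az1 is chr3:137864327-137864486, also on the plus strand. The 19 matches in these 7 windows share no letters, with 0 overlapping pairs. In H1f1 the CCAAT box begins 56 bases and the TATA box 33 bases before the start. In H2ac4 the octamer begins 129 bases before the start, and in H2bc3 90 bases before it. The letters TATAAA begin only 10 bases before the start in H2bc3, so they are not called the TATA box of that start. The H2az1 window holds the letters CCAAT on each strand, beginning 80 and 23 bases before the start, and no TATAAA.

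Over the full windows of 300 bases (250 before to 50 after the start), 30 of the 35 genes had a window, 31 windows in all. CCAAT was found in 22 of 27 replication-dependent windows, and in 37.4% of all 32851 windows of that length. The types differed: all 3 H1, 6 H2A, 7 H2B and 4 H3 windows held it, against 2 of 7 H4 windows. TATAAA was found in 13 of the 27, against 13.6% of all windows, with 3 of 3 for H1 and 0 of 4 for H3. ATTTGCAT, known from H2B promoters, was found in 5 of 7 H2B windows and 1 of 6 H2A windows, that of H2ac4, against 1.74% of all windows. The 7 H2B windows belong to 6 genes, since H2bc6 has 2 windows, 1 with these letters and 1 without. It was also found in the windows of both testis genes. The E2F motif TTTGGCGC (0.514% of all windows) was in 0 of the 27, and so was TTTCCCGC (1.07% of all), which says only that these letters are not in these windows. A match describes letters and not a bound site.

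Most markers of immature thymocytes, and a minority of those of red cell precursors, myeloid cells and B cells, were listed, and each listed one was lower in the CIITAtgpIV-/- array. Over the 28560 probe sets, 2.54% were at least 2-fold lower. Summed signals below cover listed markers alone, which listing chose for a difference of at least 2-fold, so they do not measure cell content. Of 7 genes of immature thymocytes, 6 were listed, all lower, with a summed signal (log2) of 7.26 in CIITAtgpIV-/- and 11.15 in wild type. Cd24a, a surface protein of immature thymocytes, had 3.51 in CIITAtgpIV-/- and 8.56 in wild type. Of 9 red cell precursor genes 3 were listed, all lower, with a summed signal of 6.88 in CIITAtgpIV-/- and 10.07 in wild type. Of 10 myeloid genes 3 were listed, all lower, with a summed signal of 5.28 in CIITAtgpIV-/- and 7.59 in wild type, and of 8 B cell genes 1, Igj, was listed, with 3.41 in CIITAtgpIV-/- and 5.26 in wild type. Igj, the myeloid marker Itgax and the immature thymocyte marker Rag2 lay below the floor of 5.42 in both arrays. In CIITAtgpIV-/- alone, Rag1 (4.47), Cd24a (3.51), Dntt (5.29), Arpp21 (4.26), Hbb-b1 (4.73), Lyz2 (3.44) and Mpeg1 (3.94) also lay below it. The differences of the markers that are not listed are not known here. None of the lists for CD8 T cells, CD4 T cells and NK cells had a listed member. The part of these cells in the lower histone signals was not tested.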

How the data were processed

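Deposited values are log2 signals, 1 per probe set and array, made by the authors with GCOS and RMA (robust multi-array average) per the submitters' processing notes. Expression Console 1.1 and affy 2.9.2 stand in the design text. The array type is not given in the sources used here, nor is the genome build. The authors' deposited table of changed probe sets gives a log2 ratio, probe numbers and annotation, per the file headers. All 1003 ratios equal CIITAtgpIV-/- minus B6 wild-type of the value table within 0.1. Its 2 signal columns were not used. RMA compresses differences at low signal.

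Members and gene lists were chosen with earlier results of these data known. Every member could be named, and in full were named, per histone type, the brightest and the most changed signal, all variants and those just inside 2-fold. A listed gene was represented by its brightest probe set. RefSeq (GRCm38.p6) matched all 35 symbols, by accession or older symbol. RefSeq holds 81 protein-coding genes with a current or older name of the rule, of which 46 are not among those matches. Of the 46, H2bc23 is listed under a clone name. For Hist1h2ao, the accession gives H2ac24 and the older symbol H2ac23, and for Hist1h4m they give H4c18 and H4c17. No test was possible with 1 array a group, and none was run. Alternatives were median centring, quantile normalization, loess (fraction 0.3), floors, thresholds and ways of collapsing probe sets, run in Python 3.11.15 with statsmodels 0.14.6 and tested on simulated data.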

Additional observations from a re-analysis of the deposited data

How the results depend on the processing

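No paired analysis was possible because neither genotype has a second array, and no array could be left out. All 165 differences of single probe sets kept their direction under median centring, quantile normalization and loess and moved by less than 0.25, the robust standard deviation. The direction is a weak check, since only probe sets past 2-fold are members. With quantile normalization 2 probe sets and with loess 1 came under 2-fold, and over the listed identifier range the median difference was -0.06 with median centring and -0.02 with both others, against 0.03 as deposited. The count of 54 lower signals was 35 with 1 value per symbol, 27 over symbols with 1 listed probe set and 22 at 4-fold. The median of all histone signals was -2.26 over symbols with 1 listed probe set. The replication-dependent median was -2.29 with 1 value per symbol and -2.39 over symbols with 1 listed probe set, since symbols with several probe sets then weigh less. The other 83 of 89 alternative counts and medians stayed within 1.5 times (counts) or within 0.25 (medians). Counting each shared difference once, and taking symbols with 1 probe set, were chosen after seeing the data. Low signals limit how well a fold is measured.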
